A study of Mus musculus with 10 samples.

Results

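The genes of the calcium-activated potassium channels were examined in hearts of E10.5 mouse embryos with and without the coxsackie–adenovirus receptor (CAR). The group was set by name and holds 8 genes of the 19938 that had a transcript cluster of their own, a transcript cluster being the set of probes that the array reads as 1 signal for a gene. They are Kcnma1, Kcnmb1, Kcnmb2, Kcnmb4, Kcnn1, Kcnn2, Kcnn3 and Kcnn4, each represented by the brightest cluster that names no other gene. RNA of 5 WT (CAR +/+) and 5 CAR KO samples was hybridised to Affymetrix Mouse Gene 1.0 ST arrays, and the genotypes carry the numbers 1 to 5 in their labels. The embryos came from crosses of CAR +/- mice of the line B6.Cg-Cxadr tm1/Fgr, in which the gene of CAR, Cxadr, is disrupted in every cell. CAR KO embryos of this line die in mid-gestation, after the stage sampled. No treatment was given. Each sample pooled 3 whole hearts, so that a signal averages over all cell types of the heart and over embryos, and fewer cells of a type cannot be told apart from less RNA per cell. The labels do not say which samples share a litter. The p-values set a difference against the spread between these samples, which were taken as independent.

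Calcium-activated potassium channels open when calcium rises in the cell, and the potassium that leaves pulls the membrane potential down. The large-conductance (BK) channel has a pore-forming subunit, encoded by Kcnma1, that senses both voltage and calcium, and beta subunits (Kcnmb genes) that set its calcium sensitivity and kinetics. The small-conductance (SK) channels of Kcnn1, Kcnn2 and Kcnn3 and the intermediate-conductance channel of Kcnn4 are not gated by voltage and sense calcium through bound calmodulin. BK channels are best known from smooth muscle and neurons, SK channels from neurons and from the atria and pacemaker cells of the heart, and the Kcnn4 channel from red blood cells, where it is called the Gardos channel, from lymphocytes and from endothelium.

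The 250 bases before the transcription start are given here for the 2 BK beta subunits above background and for the intermediate channel, the 3 genes above background whose signals varied most from sample to sample. They are taken from RefSeq on GRCm38.p6, 5′ to 3′ on the strand of the gene, with CG dinucleotides in capitals to show how far the promoters differ in these.
Kcnmb1, chr11:33962763-33963012, plus strand: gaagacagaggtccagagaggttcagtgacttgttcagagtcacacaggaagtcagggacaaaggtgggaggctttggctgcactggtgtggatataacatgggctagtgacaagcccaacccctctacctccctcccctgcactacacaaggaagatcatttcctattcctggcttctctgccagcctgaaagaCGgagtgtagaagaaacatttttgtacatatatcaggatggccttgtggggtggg
Kcnmb4, chr10:116473524-116473773, minus strand: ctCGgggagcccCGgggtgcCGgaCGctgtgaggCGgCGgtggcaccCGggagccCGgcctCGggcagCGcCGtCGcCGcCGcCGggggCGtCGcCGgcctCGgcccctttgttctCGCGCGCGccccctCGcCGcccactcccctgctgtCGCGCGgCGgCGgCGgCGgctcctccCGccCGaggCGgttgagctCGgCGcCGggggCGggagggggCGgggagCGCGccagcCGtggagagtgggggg
Kcnn4, chr7:24370013-24370262, plus strand: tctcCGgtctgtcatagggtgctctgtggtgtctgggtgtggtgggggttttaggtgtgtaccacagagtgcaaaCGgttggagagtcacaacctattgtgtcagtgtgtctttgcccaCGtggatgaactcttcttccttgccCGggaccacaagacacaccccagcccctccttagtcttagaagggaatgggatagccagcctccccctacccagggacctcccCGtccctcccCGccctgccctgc
The beta subunits stand at opposite ends. The Kcnmb1 stretch holds 1 CG at a G+C content of 50.8%, an observed over expected CG ratio of 0.0627, which is at the 9.09 percentile of 32851 promoters. The Kcnmb4 stretch holds 43 CG at 83.6% G+C, a ratio of 0.991, at the 93.8 percentile. The Kcnn4 stretch holds 6, with a ratio of 0.279 against a median of 0.374 over all promoters. Promoters were examined for 7 of the 8 genes, and Kcnn2 was not included in this step. Letters of 6 known motifs were searched for on both strands. The GC box (GGGCGG) was found 4 times before Kcnmb4 and 1 time before Kcnn4, and the E-box (CANNTG) 1 time before Kcnn4, 133 bases before the start. GC boxes also stood before Kcnma1, where 2 of 3 overlapped, and before 1 of the 2 Kcnn1 starts, and E-boxes before both Kcnn1 starts. Of all promoters 32.7% held a GC box and 66.2% an E-box. The stretch before Kcnmb1 held neither. Nor did any of the 7 genes hold a GATA motif (AGATAA, in 9.99% of promoters), a TATA box (TATAAA, 12.4%), a CArG box (1.47%) or a MEF2 site (2.92%). These matches describe letters in the window only.

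The samples were checked before the channels were compared. Cxadr differed by -1.91 on the log2 scale (adjusted p = 1.40e-05 from limma) and its genotypes did not overlap. In CAR KO hearts its signal was between 6.23 and 6.69, around the background level of 6.51. This level is the 95th percentile of 1212 clusters of odorant and vomeronasal receptors, assumed here to be mostly silent in the heart. All 8 cardiomyocyte markers and all 7 smooth muscle markers were above that level in every sample. Both samples numbered 5 stood apart. Their means over the cardiomyocyte markers were 12.71 (WT) and 12.70 (CAR KO), against 12.90 to 13.04 in the other 8, and their means over the liver and yolk sac markers were 10.17 and 11.23, against 7.21 to 9.91. Of the 5 epicardial markers all had a lower mean in CAR KO hearts and 3 had an unadjusted p under 0.05, with list means of 10.22 to 10.40 in WT and 9.84 to 10.29 in CAR KO hearts. None of these markers passed the adjusted threshold.

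The 8 channel genes had similar signals in WT and CAR KO hearts, and none was called as changed. Limma's moderated test over all 28944 clusters, with Benjamini-Hochberg adjustment, called none of them at an adjusted p under 0.05 (adjusted p = 0.99997 for each), where 0.00345% of all clusters, Cxadr alone, were called. At an unadjusted p under 0.05 none was found either, against 2.4% of all clusters, and none had genotypes that did not overlap, against 0.359%. For 8 of 8 genes the 95% confidence interval left no room for a 1.5-fold change up or down, as it did for 97.3% of clusters, and for 3 it left none for a 1.2-fold change, Kcnmb2, Kcnn1 and Kcnn2, against 60.6% of clusters. Kcnma1 and Kcnmb2 were not above background, so that for these 2 the interval bounds the array signal and not the transcript; of the 6 above background, all 6 met the wider limit and Kcnn1 and Kcnn2 the narrower one. The means of 5 genes were higher in CAR KO and those of 3 lower, with a median log2 difference of 0.02 beside 0.01 over all clusters. These intervals bound a difference, and their widths differed from gene to gene.

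**Figure D1:**
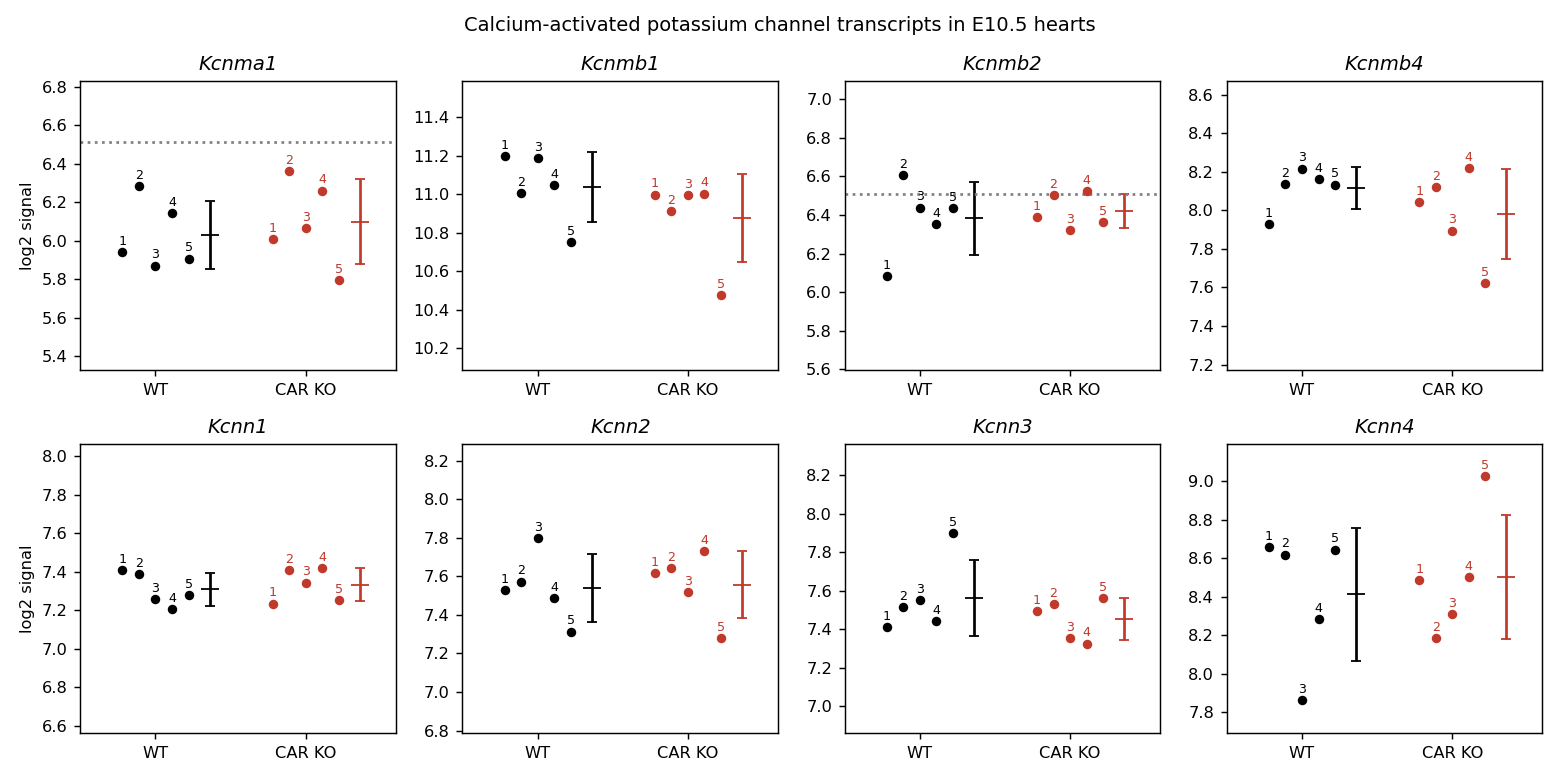
Log2 signal of the 8 channel genes in each of 5 WT (black) and 5 CAR KO (red) samples, numbered as in the labels, with the mean ± SD of each genotype at the right of its points and the background level of 6.51 as a dotted line where it falls in a panel; every panel spans the same height on the log2 axis. The genotypes overlap for all 8 genes, Kcnma1 lies below the background line in all 10 samples, and sample 5 is the lowest of its genotype for Kcnmb1 and Kcnn2.

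The pore-forming subunit of the BK channel was not detected above background. Kcnma1 had log2 signals of 5.94, 6.28, 5.87, 6.14 and 5.91 in WT samples 1 to 5 and of 6.01, 6.36, 6.06, 6.26 and 5.80 in CAR KO samples 1 to 5. All 10 lay below the background level, as did all 10 values of a second cluster assigned to this gene, between 5.42 and 6.12. At such levels a difference between genotypes is compressed, and the interval of the difference, 0.07 on the log2 scale (95% confidence interval -0.18 to 0.32), bounds the array signal only.

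Its beta subunits were not alike in this respect. Kcnmb1, which encodes beta1, the subunit known from vascular smooth muscle for raising the calcium sensitivity of the BK channel, was far above background in all 10 samples. Its log2 signals were 11.20, 11.01, 11.19, 11.05 and 10.75 in WT and 11.00, 10.91, 11.00, 11.00 and 10.48 in CAR KO hearts. The WT samples 1 to 4 were all above the highest CAR KO sample, by 0.01 or less for WT sample 2, and WT sample 5 was below 4 of the 5 CAR KO samples, so that the genotypes overlapped. The means were 11.04 ± 0.18 (SD, n = 5) and 10.88 ± 0.23 (SD, n = 5), a log2 difference of -0.16 (95% confidence interval -0.41 to 0.09), or a change of -10.5% (-25.0% to 6.66%). With the samples taken as unpaired, this did not exceed the spread between them (exact permutation test, two-sided, p = 0.246). At each sample number the CAR KO signal was below the WT signal. With sample number as a replicate block, the 95% confidence interval was -0.29 to -0.03 (unadjusted p = 0.0189 and adjusted p = 0.969 from limma). Whether the numbers pair the samples is not known. The Kcnmb1 difference was the largest of the 8 genes, and it was -0.06 without CAR KO sample 5 and -0.23 without WT sample 5. The annotated span of Kcnmb1 overlaps that of Kcnip1, another potassium channel subunit gene.

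In both genotypes sample 5 had the lowest Kcnmb1 signal, and the cardiomyocyte marker mean was lowest in the same 2 samples. Over the 10 samples Kcnmb1 and that mean had a Pearson r of 0.859 (permutation p = 0.00440, adjusted p = 0.0519 over 64 relations of a channel gene with a marker list) and a Spearman rho of 0.515 (permutation p = 0.134, adjusted p = 0.542). Without the 2 samples numbered 5, r over the other samples of both genotypes was 0.289, so that much of this pooled r rests on those. A pooled r also holds the difference of Kcnmb1 between genotypes. For deviations from the genotype means, r over all 10 samples was 0.974. Within a genotype r was 0.979 in WT and 0.975 in CAR KO (n = 5 each), with sample 5 at the far end of each. The r within a genotype was not calculated without sample 5. With the cardiomyocyte mean as a covariate, an alternative chosen after the data were seen, the Kcnmb1 difference was -0.19 (95% confidence interval -0.30 to -0.08) with an unadjusted p under 0.05, and the adjusted p from limma was 0.99994. The smooth muscle list moved in the same way as the cardiomyocyte list (r = 0.848 with Kcnmb1, 0.315 without the 2 samples), as did the endothelial list (r = 0.859, then 0.259), and the liver and yolk sac list in the opposite one (r = -0.747, then -0.140). With the epicardial list, whose means were lower in CAR KO hearts as that of Kcnmb1 was, r was 0.706 (permutation p = 0.0266, adjusted p = 0.155) and rho 0.697 (permutation p = 0.0304, adjusted p = 0.324), and r was 0.427 without CAR KO samples 4 and 5. With the macrophage list r was -0.632 and turned to 0.5002 without the samples numbered 5. The part of any of these tissues in the Kcnmb1 signal was not tested. Nor was it tested how far the smooth muscle list marks smooth muscle alone in these hearts. Mean signals in that list ran from 7.46 (Myh11) to 13.87 (Acta2).

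Kcnmb4, which encodes beta4, the beta subunit known from neurons, was also above background in all 10 samples. Its signals were 7.93, 8.14, 8.22, 8.16 and 8.13 in WT and 8.04, 8.12, 7.89, 8.22 and 7.62 in CAR KO hearts. CAR KO sample 5 was the lowest of all and WT sample 1 the lowest of its genotype, while the highest samples of both genotypes were level with each other. The difference was -0.13 (95% confidence interval -0.36 to 0.09; exact permutation test, two-sided, p = 0.278), and -0.05 without CAR KO sample 5. Kcnmb4 moved with the endothelial markers, 7 of 8 of which had a lower mean in CAR KO hearts, although none was called. Here r was 0.816 (permutation p = 0.00783, adjusted p = 0.0626) and rho 0.758 (permutation p = 0.0152, adjusted p = 0.195). Without the samples numbered 5 r was 0.813, and within genotypes it was 0.278 in WT and 0.960 in CAR KO. The part of these cells in the Kcnmb4 signal was not tested. Annotated genes on the locus, Kcnmb4os1 and Kcnmb4os2, have clusters of their own. These differed by 0.04 and -0.01. Kcnmb2, the gene of the inactivating beta2 subunit, was above the background level in only 2 samples, WT sample 2 at 6.61 and CAR KO sample 4 at 6.52, and its lowest sample was WT sample 1 at 6.08. Its means of 6.38 ± 0.19 and 6.42 ± 0.09 (SD, n = 5 each) were below background, and their difference was 0.04.

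The SK channel genes Kcnn1, Kcnn2 and Kcnn3 were above background in every sample. Kcnn1, the gene of SK1, varied least: its signals were 7.41, 7.39, 7.26, 7.21 and 7.28 in WT and 7.23, 7.41, 7.34, 7.42 and 7.25 in CAR KO hearts. Its spread within genotypes was at the 20.7 percentile of the 14666 genes above background, and its difference of 0.02 (95% confidence interval -0.11 to 0.16) had the narrowest interval of the 8 genes. In percent this bounds a change between -7.60% and 11.8%.

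Kcnn2 encodes SK2, which has been tied to repolarisation of atrial and pacemaker cells. Its signals were 7.53, 7.57, 7.80, 7.49 and 7.31 in WT and 7.62, 7.64, 7.52, 7.73 and 7.28 in CAR KO hearts. As for Kcnmb1, sample 5 was the lowest of each genotype, and the other samples of the genotypes were interleaved. The difference was 0.02 (95% confidence interval -0.20 to 0.24; exact permutation test, two-sided, p = 0.873). Kcnn2 moved with the endothelial markers, 8 of 8 of which were above background with means of 10.73 to 10.99 in WT and 10.56 to 10.94 in CAR KO hearts. Here r was 0.838 (permutation p = 0.00129, adjusted p = 0.0413) and rho 0.818 (permutation p = 0.00607, adjusted p = 0.129), and r was 0.539 without the 2 samples numbered 5, so that much of the relation rests on those samples. The cardiomyocyte list gave a similar r of 0.834 (permutation p = 0.00487, adjusted p = 0.0519; rho 0.770, permutation p = 0.0121, adjusted p = 0.194), which was 0.338 without them, and the macrophage list an r of -0.715 (adjusted permutation p = 0.127), then 0.0048. The part of these cells in its signal was not tested.

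Kcnn3, the gene of SK3, known from neurons and from the endothelium of resistance arteries, had signals of 7.41, 7.51, 7.55, 7.44 and 7.90 in WT and 7.49, 7.53, 7.35, 7.33 and 7.56 in CAR KO hearts. WT sample 5 was above every other sample, and the remaining WT samples lay within the CAR KO range. The difference was -0.11 (95% confidence interval -0.31 to 0.09; exact permutation test, two-sided, p = 0.341), and -0.03 without WT sample 5. Kcnn3 moved with the macrophage markers, 7 of 8 of which were above background (all but Ptprc), with means of 7.66 to 8.26 in WT and 7.39 to 8.11 in CAR KO hearts. Of the 64 relations this had the highest r, 0.881 (permutation p = 2e-04, adjusted p = 0.0128), with a rho of 0.855 (permutation p = 0.00278, adjusted p = 0.089). Without both samples numbered 5, r was 0.796, and within genotypes it was 0.979 in WT and 0.806 in CAR KO. Kcnn3 also moved with the liver and yolk sac list (r = 0.664, rho = 0.879, with permutation p = 0.0292 and 0.00163, adjusted p = 0.156 and 0.089), and against the cardiomyocyte list (r = -0.754, adjusted permutation p = 0.0591). With the neuronal and neural crest list r was 0.670 (adjusted permutation p = 0.252) and rho 0.0545. That r was 0.951 within WT and -0.693 within CAR KO, and -0.345 without WT sample 5 and CAR KO sample 2. The macrophage, liver and cardiomyocyte lists themselves were at their extremes in the samples numbered 5. The neuronal and neural crest list was highest in WT sample 5, at 8.05. The part of any of these lists in the Kcnn3 signal was not tested.

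**Figure D2:**
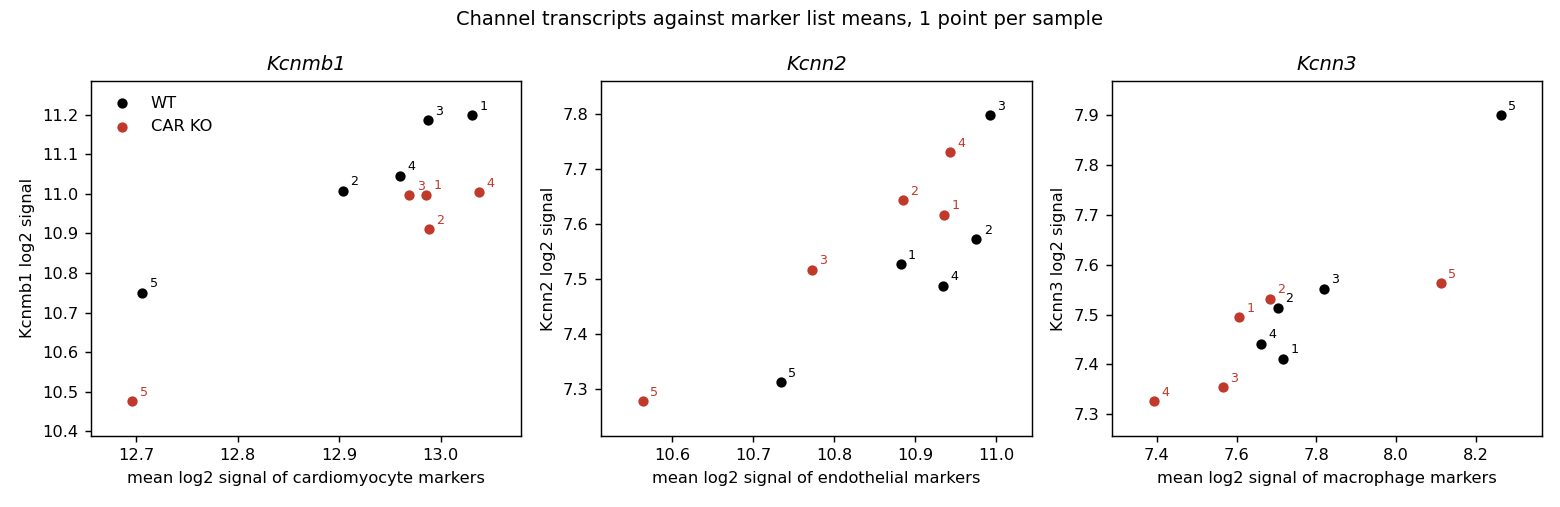
Log2 signal of Kcnmb1, Kcnn2 and Kcnn3 against the mean log2 signal of the cardiomyocyte, endothelial and macrophage markers, with 1 point for each of 5 WT (black) and 5 CAR KO (red) samples, numbered as in the labels. The samples numbered 5 lie at the low end for Kcnmb1 and Kcnn2, and r without them was 0.289 and 0.539; for Kcnn3 they lie at the high end of the macrophage axis, and r without them was 0.796.

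Kcnn4, the gene of the intermediate-conductance or Gardos channel, varied most between samples. Its signals were 8.66, 8.62, 7.86, 8.28 and 8.64 in WT and 8.49, 8.19, 8.31, 8.50 and 9.02 in CAR KO hearts. The lowest sample, WT sample 3, and the highest, CAR KO sample 5, were 1.16 apart on the log2 scale, and the other 8 samples of both genotypes lay between 8.19 and 8.66. The spread within genotypes was at the 96.9 percentile of the genes above background. The difference of 0.09 had the widest interval of the 8 genes (95% confidence interval -0.30 to 0.48, in percent -19.0% to 39.6%; exact permutation test, two-sided, p = 0.690), and it was -0.05 without WT sample 3 and -0.04 without CAR KO sample 5. The 8 erythroid markers with a cluster of their own were all above background, with means of 10.97 to 11.64 in WT and 11.00 to 11.53 in CAR KO hearts. WT sample 3 had the lowest erythroid mean as well as the lowest Kcnn4 signal. Over all samples Kcnn4 and the erythroid mean had an r of 0.538 (permutation p = 0.114, adjusted p = 0.288) and a rho of 0.394 (permutation p = 0.262, adjusted p = 0.606), and r was -0.432 without WT sample 3 and CAR KO sample 2, the pair with the lowest erythroid means. Within genotypes r was 0.914 in WT, which includes WT sample 3, and 0.161 in CAR KO. Other lists had larger values for Kcnn4: r was -0.657 with the epicardial, -0.649 with the endothelial and 0.640 with the liver and yolk sac list (adjusted permutation p = 0.173 for each). These were -0.390, -0.122 and 0.246 without the 2 samples farthest from the median of the list, CAR KO sample 5 being 1 of the 2 each time. The part of these tissues in the Kcnn4 signal was not tested.

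**Figure D3:**
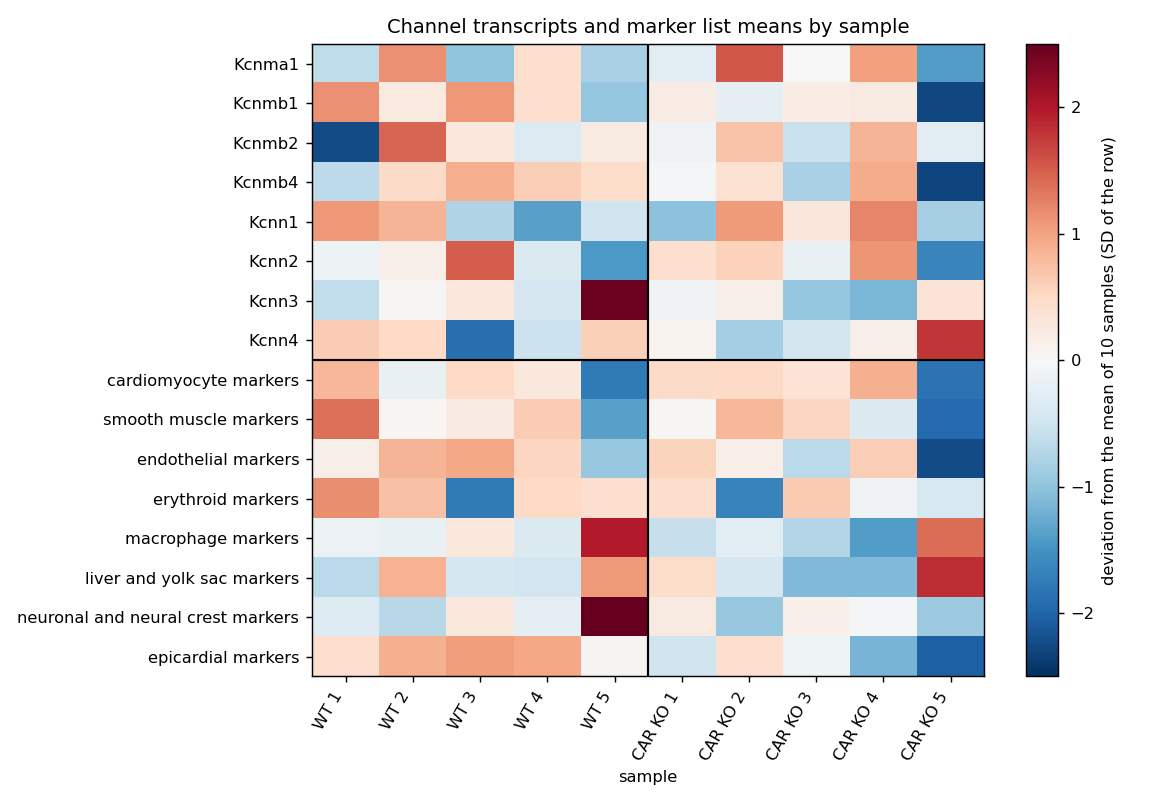
Signals of the 8 channel genes (upper block) and means of 8 marker lists (lower block) in each of the 10 samples, as the deviation from the mean of the row in SD of the row, red above and blue below. The columns WT 5 and CAR KO 5 are low for Kcnmb1, Kcnn2 and the cardiomyocyte, smooth muscle and endothelial lists, and high for the macrophage and liver and yolk sac lists.

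Of the 64 relations of a channel gene with a marker list, the 2 given for Kcnn3 and Kcnn2 had an adjusted permutation p under 0.05 for r, and none had one for rho. The channel genes were also set against each other. None of the 28 pairs had an adjusted permutation p under 0.05. The highest r joined Kcnmb1 and Kcnn2 (r = 0.742, adjusted permutation p = 0.221; rho = 0.455, adjusted permutation p = 0.539), and was 0.130 without the 2 samples numbered 5. The lowest joined Kcnn2 and Kcnn4 (r = -0.738, adjusted permutation p = 0.221; rho = -0.600, adjusted permutation p = 0.539), and was -0.285 without WT sample 3 and CAR KO sample 5. The BK beta subunits Kcnmb1 and Kcnmb4 had an r of 0.593 (permutation p = 0.0825, adjusted p = 0.330), and of -0.0747 without the samples numbered 5.

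For each of the 6 channel genes above background, the 3 genes above background with the most similar pattern over the 10 samples are given as a description, by Pearson r. All share the same 10 libraries, and the 3 are the extremes of 14665 candidates. Kcnmb1 was closest to Srpk3 (0.976), a kinase of striated muscle, Atl1 (0.960) and Pbxip1 (0.959), and these were 0.876, 0.869 and 0.874 without the 2 samples numbered 5. Kcnmb4 was closest to Acat1 (0.980), an enzyme of ketone body metabolism in mitochondria, Cfap161 (0.969) and Lsmem2 (0.963). The patterns closest to Kcnn1 were those of Npw (0.926), Mrps2 (0.921) and Trex1 (0.908), and to Kcnn2 those of Nid2 (0.961), a basement membrane protein, Nipsnap2 (0.949) and Psap (0.948). Kcnn3 was closest to C7 (0.974), a component of complement, Mex3d (0.970) and Chrnb4 (0.962), a nicotinic receptor subunit. For Kcnn4 the closest were Treml2 (0.945), a receptor of immune cells, Pla2g6 (0.940), a phospholipase, and Mfsd2b (0.937), the exporter of sphingosine 1-phosphate in red blood cells.

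Genes that work with these channels were compared in the same way. None of the 29 with a cluster of their own, in 5 groups, was called or had an unadjusted p under 0.05 from limma. Of all clusters 0.00345% were called and 2.4% had such a p. The other auxiliary subunits of the BK channel include beta3, the gene Kcnmb3, which was above background in all samples and differed by 0.01, and Lrrc26, a gamma subunit, which differed by -0.08. The gamma subunit genes Lrrc38, Lrrc52 and Lrrc55 were not above background. Of the relatives of Kcnma1 gated by sodium or pH, Kcnt1 alone was above background, with a difference of 0.08, while Kcnt2 and Kcnu1 were below it in all 10 samples.

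Calmodulin is carried by SK and Kcnn4 channels, and casein kinase 2 and protein phosphatase 2A are partners of SK channels. Their genes and that of the anchoring protein alpha-actinin 2 were represented by 7 of 9. All 7 were above background, with intervals within a 1.2-fold change, against 60.6% of all clusters. Calm2 and Calm3, genes of calmodulin, the calcium sensor of these channels, differed by 0.03 and -0.06, and Actn2 by -0.06. Of 3 BK regulators, Prkg1, the cGMP-dependent kinase, differed by -0.03 and Crbn by 0.06. Cav1, a scaffold of caveolae, differed by 0.13 with an interval from -0.65 to 0.91, since its SD was 0.59 in WT and 0.75 in CAR KO hearts.

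Sources of the calcium that gates the channels were represented by 11 of 12 genes, all above background. In 10 of them the interval stayed inside 1.5-fold, against 97.3% of all clusters. The exception was Cacna1g, a T-type calcium channel, at 7.76 ± 0.49 in WT and 7.53 ± 0.19 in CAR KO hearts (SD, n = 5 each), with a difference of -0.23 (95% confidence interval -0.66 to 0.20). The L-type channels Cacna1c and Cacna1d differed by -0.07 and 0.10, and Ryr2, the calcium release channel of the sarcoplasmic reticulum, by 0.14 (95% confidence interval -0.13 to 0.42). Orai1 and Stim1, which carry store-operated calcium entry, differed by -0.05 and 0.01, and the mechanosensitive channel Piezo1 by -0.07.

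**Figure D4:**
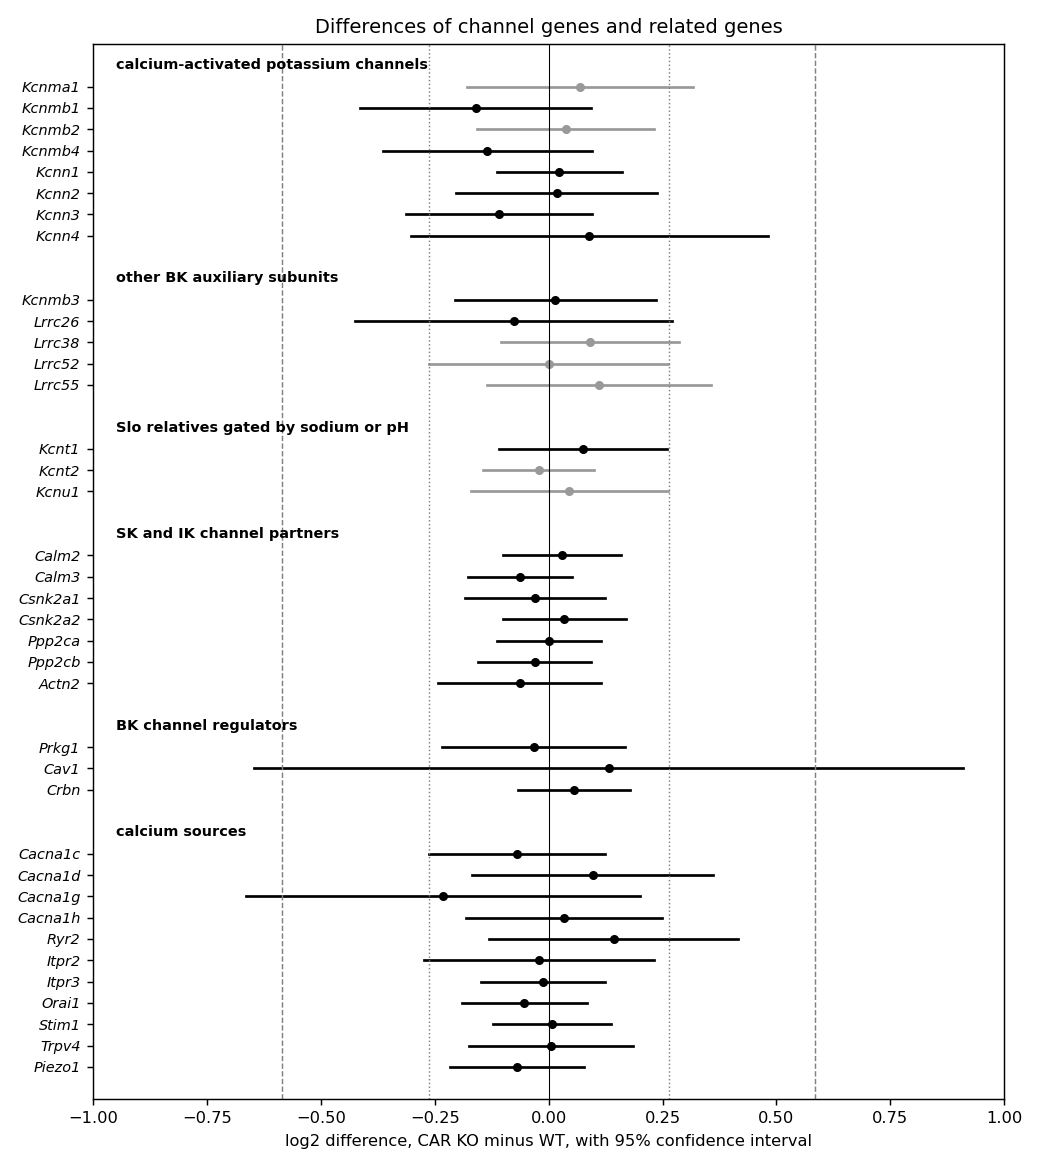
Log2 difference, CAR KO minus WT, with its 95% confidence interval from limma, for the 8 channel genes and 29 related genes in 5 groups; black, above background, and grey, not above background, with dashed lines at a 1.5-fold and dotted lines at a 1.2-fold change. All 8 channel genes lie within the dashed lines, and Cav1 and Cacna1g are the related genes that cross them.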

How the data were processed

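Expression was measured in 5 WT and 5 CAR KO samples, grouped by their labels. The values, as deposited by the authors, are log2 signals in 1 table of 35556 rows. The submitters' processing notes name MAS5, and how scanner output became this table was not stated in any source used. Values were used as deposited, with array medians of 7.65 to 7.73. After 6612 control rows were left out, 28944 clusters were tested for genotype by lmFit and eBayes (limma 3.58.1, R 4.3.3), with Benjamini-Hochberg adjustment and a threshold of 0.05. Gene names came from the platform annotation; 21789 clusters name 1 gene. No interval was corrected for multiple testing. Correlations used 100000 permutations (numpy 2.4.6, scipy 1.17.1), and figures matplotlib 3.10.9. The fit and the correlations were tested on simulated data. The number of arrays limits the precision.

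The channel genes and 13 lists (96 genes, 89 with a cluster of their own) were chosen with earlier results of these data known. Named are the channel genes, genes of the 5 lists that are not markers, the 3 closest patterns per channel gene above background, and Cxadr. Alternatives were quantile normalization, centring on medians, and the loss of dim clusters (below the 40th percentile) or of clusters with several genes or none. Others were an intensity trend together with a robust prior, array weights, and a t-test (Benjamini-Hochberg adjusted). The study names the t-test for its data in general and no test for the arrays. A replicate block of sample number and the loss of each sample in turn were also used. The means of 2 marker lists as covariates and the loss of the 3 samples richest in liver transcripts were added after the data were seen. Promoters came from RefSeq on GRCm38.p6, and gene overlaps from the same annotation.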

Additional observations from a re-analysis of the deposited data

Results flagged for a closer look

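In groups of 5, the lowest or highest sample was set against its neighbour: its gap, divided by the range of the group, was compared with Dixon's critical value of 0.71, which chance passes in about 1 of 20 groups. Of 34 groups examined, 6 passed, where 1.7 would be expected by chance. The groups are drawn from the same samples and some of the signals move together. They are not independent, and 6 cannot be read as an excess over 1.7. Among the channel genes, Kcnmb1 was low in CAR KO sample 5, at 10.48 against 10.91 for the next (gap 0.824 of the range). Kcnmb4 was low in WT sample 1, at 7.93 against 8.13 (0.715), and Kcnn3 was high in WT sample 5, at 7.90 against 7.55 (0.712). Among the marker lists, the cardiomyocyte mean was low in CAR KO sample 5 (12.70 against 12.97, gap 0.798), the erythroid mean was low in WT sample 3 (10.97 against 11.47, gap 0.746), and the macrophage mean was high in WT sample 5 (8.26 against 7.82, gap 0.738). The samples that stood apart for Kcnmb1 and Kcnn3 are thus the ones that stood apart for the cardiomyocyte and macrophage lists.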

How the results depend on the processing

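No channel gene was called at an adjusted p under 0.05 in any of 21 alternatives to the main setting. All tested channel genes had intervals within a 1.5-fold change in each of them (6 of 6 with the filter on dim clusters, which removed Kcnma1 and Kcnmb2). With 1.2-fold as the limit the count was 3 of 8. By the t-test, which the study does not name for the arrays, none was called either at a p under 0.05, unadjusted or Benjamini-Hochberg adjusted. Directions held in every alternative for Kcnma1, Kcnmb1 (-0.23 to -0.06), Kcnmb4 and Kcnn3. With 1 sample left out, the difference of Kcnmb2 ranged from -0.0377 (without WT sample 1) to 0.0925, that of Kcnn1 from -0.0020 (without WT sample 4) to 0.0482, that of Kcnn2 from -0.0392 to 0.0872 and that of Kcnn4 from -0.0489 to 0.168. Below 0 were Kcnn2 without WT sample 5, CAR KO sample 2 or CAR KO sample 4, and Kcnn4 without WT sample 3 or CAR KO sample 5. With the cardiomyocyte mean as a covariate Kcnn2 differed by -0.0023. The cause was not tested.

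At an unadjusted p under 0.05 there was 1 channel gene, Kcnmb1, in 4 alternatives: the sample number as a replicate block, the liver and yolk sac mean and the cardiomyocyte mean as covariates, and the loss of the 3 samples richest in liver transcripts (WT samples 2 and 5 and CAR KO sample 5). Its differences there were -0.16, -0.18, -0.19 and -0.17, and its adjusted p from limma 0.969, 0.9997, 0.99994 and 0.879. The number of channel genes whose genotypes did not overlap was between 0 and 1 when a sample was left out. The 1 was Kcnmb1 without WT sample 5, the only WT sample not above every CAR KO sample. The share of all clusters without overlap was 0.359% with all samples, and was not calculated with a sample left out. Over all clusters, 2 were called with array weights. An unadjusted p under 0.05 was found for 696 clusters, and for 1811 with array weights, 1304 with the replicate block, 411 without WT sample 4, 1051 with the cardiomyocyte covariate and 1214 without the 3 samples. The sample numbers were not taken as pairs in the main setting, since the labels name no shared litter. Deviations of same-numbered samples correlated by 0.0727 for number 4, and by 0.201 to 0.560 for the others. Of 5 samples, 3 in WT and 4 in CAR KO correlated best with their own number. What same-numbered samples share was not tested, and the unpaired tests take no account of it. Signals near background limit what is known of Kcnma1 and Kcnmb2.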
